A study of Mus musculus with 22 samples.

Results

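The genes described here are 10 genes of replication licensing and helicase activation, Mcm2, Mcm3, Mcm4, Mcm5, Mcm6, Mcm7, Mcm10, Cdc6, Cdt1 and Cdc45, taken by gene symbol from 55573 genes counted in mouse liver mRNA. The 10 symbols matched 10 rows of the count table, and the 10 genes passed the filter for testing with 14062 genes in all, a mean of at least 10 counts over the livers. The 22 livers, 1 library per C57BL/6 mouse, fell into 4 groups set by genotype and diet. Cre mice, wild type for Flcn (FlcnWT/WT) and carrying Albumin-Cre+/-, numbered 6 on chow and 5 on the methionine- and choline-deficient (MCD) diet. Liver-Flcn-/- mice, labelled FLCN KO, carried Flcn f/f with Albumin-Cre and numbered 5 on chow and 6 on the MCD diet. Both genotypes thus carried the recombinase, which the albumin promoter drives in hepatocytes, so that liver cells that never expressed it keep Flcn. The diets, D12450B chow or TD.90262 MCD, began at 6 weeks of age and lasted 6 weeks, and livers were taken at 3 months. Reads counted on genes numbered between 15276157 and 19417246 in Cre mice on chow, between 18201287 and 21144388 in Cre mice on MCD, between 13751347 and 19645473 in liver-Flcn-/- mice on chow and between 16616132 and 20706657 in liver-Flcn-/- mice on MCD.

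DNA replication origins are licensed before S phase, when Cdc6 and Cdt1, guided by the origin recognition complex, load the ring of Mcm2 to Mcm7 onto DNA. The ring becomes an active helicase once Cdc45 and the GINS complex join it, a step in which Mcm10 also takes part. Most hepatocytes of an adult liver rest outside the cell cycle and hold little licensing mRNA, whereas these genes rise when hepatocytes or other liver cells enter the cycle, for example after injury. The comparisons ask how these genes responded to the MCD diet in each genotype and whether the genotypes differed on each diet. In bulk liver, fewer cells of a type and less RNA per cell cannot be told apart.

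The promoters of these genes are known for E2F sites, which mark genes transcribed at the start of S phase, whereas many genes of mitosis carry the cell cycle homology region (CHR). RefSeq windows on GRCm38.p6, from 250 bases before to 50 bases after the annotated start, were found for 9 of the 10 genes, Mcm4 being the exception. An E2F-type octamer (TTTCCCGC, TTTCGCGC, TTTGCCGC or TTTGGCGC, on either strand, with overlapping matches counted) stood in the windows of 6 of the 9 genes (66.7%), in 1 of 27 mitotic genes (3.7%) and in 2.60% of all 27025 genes with a window. The CHR hexamer TTTGAA, on either strand, stood in 2 of the 9 genes (22.2%), namely Mcm2 and Cdc45, in 20 of 27 mitotic genes (74.1%) and in 20.2% of all genes. The third motif searched, CCAAT on either strand, did not set the lists apart, standing in 7 of the 9 genes (77.8%), in 22 of 27 mitotic genes (81.5%) and in 41.1% of all genes. One E2F-type site of each of the 6 genes is shown, because these letters were frequent in the licensing genes and rare in the mitotic list. The sequences run 5′ to 3′ on the strand of the gene, and capitals mark the octamer or its reverse complement.
Mcm3: aaacttccgtgGCGGGAAAacttgggaagt
Mcm5: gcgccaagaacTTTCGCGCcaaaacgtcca
Mcm6: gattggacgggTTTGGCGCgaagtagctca
Mcm7: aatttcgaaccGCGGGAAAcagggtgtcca
Cdc6: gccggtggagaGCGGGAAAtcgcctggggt
Cdt1: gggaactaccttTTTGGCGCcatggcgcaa
These 30-base stretches lie at chr1:20820275-20820304 (minus strand, Mcm3), chr8:75109345-75109374 (plus strand, Mcm5), chr1:128359734-128359763 (minus strand, Mcm6), chr5:138172030-138172059 (minus strand, Mcm7), chr11:98908002-98908031 (plus strand, Cdc6) and chr8:122568035-122568064 (plus strand, Cdt1). Mcm2, Mcm10 and Cdc45 held none of these octamers in the window. A match is a description of the letters and was not tested as a binding site.

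Several libraries stood apart before any comparison. Reads of Xist, the RNA that silences the second X chromosome of females, marked 12 of the 22 livers, 3 in each group, and the other 10 held Y-linked reads with at most 19 Xist counts. The 5 chow libraries with a low share of uniquely mapped reads (Cre mice 1, 5 and 6 and liver-Flcn-/- mice 1 and 3) were the 5 chow livers with Y-linked reads, so that on chow the sex of the mouse and the mapping share cannot be told apart. Y-linked reads also reached 15.6% of the level of Y-bearing livers in Cre MCD mouse 1 and 15.1% in liver-Flcn-/- chow mouse 2, both with Xist reads. These are called the mixed libraries, at a cut-off of 10%. Below it lay Cre chow mouse 2 (6.15%), liver-Flcn-/- chow mouse 4 (6.64%) and liver-Flcn-/- MCD mouse 3 (6.81%), also with Xist reads. They stayed in the fits without mixed libraries, and the remaining livers with Xist reads held at most 1.77%. Summed mRNA of 8 skeletal muscle genes, among which Myh1 was the most abundant, was 2337 CPM in Cre MCD mouse 3 and 114.8 CPM in Cre MCD mouse 4, and between 0.769 and 51.2 CPM in the other 20 livers. Albumin (Alb) was the most abundant hepatocyte marker in the 4 groups, and no hepatocyte marker was at 0 counts.

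Flcn mRNA was lower in liver-Flcn-/- mice on chow. Its level was 27.7, 31.5, 31.99, 26.1, 32.7 and 40.2 CPM (read counts relative to the TMM-scaled library) in the 6 Cre mice and 24.2, 19.96, 16.7, 19.4 and 21.8 CPM in the 5 liver-Flcn-/- mice, so the groups did not overlap. The log2 difference was −0.63 ± 0.17 (SE), with an adjusted p of 0.0249, and the call was lost in 5 alternatives, for example without the 5 chow libraries of low mapping share (−0.55, adjusted p = 0.244). The deletion removes a single exon and spares cells that never expressed the recombinase, so that reads of the other exons still count. On MCD, the Flcn level was 29.2 ± 8.42 CPM (mean ± SD) over the 5 Cre livers against 26.0 ± 5.13 CPM over the 6 liver-Flcn-/- livers, with overlap.

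Divided by exon length, the licensing genes spanned a wide range of levels. The order was not the same in each group. In Cre mice on chow, the mean was 10.1 ± 11.6 CPM per kb (SD) for Mcm10, a value that 1 liver at 249.6 CPM carried, then 3.15 ± 0.268 for Mcm7 and 1.29 ± 0.295 for Mcm3. In Cre mice on MCD, Mcm10 (7.87 ± 2.04 CPM per kb) was followed by Mcm6 (4.89 ± 1.31) and Mcm7 (3.98 ± 0.911), the last pair within their spread. Mcm7 led in liver-Flcn-/- mice on chow, where it (3.50 ± 0.482 CPM per kb) stood above Mcm10 (2.39 ± 1.17) and Mcm6 (2.04 ± 0.683), neighbours that differed by less than the larger of their SDs. On MCD the same 3 genes stood at 3.58 ± 0.352, 3.60 ± 0.910 and 3.15 ± 1.27 CPM per kb in liver-Flcn-/- mice, again within their spread. Cdc45, at 0.353 to 0.834 CPM per kb, and Cdc6, at 0.0502 to 0.253 CPM per kb and 2 to 43 counts per liver, had the lowest means of the 10 genes in each of the 4 groups. Only in Cre mice on MCD did Cdc6 average at least 10 counts, so that it passed the filter, with a mean of 11 counts, through the group in which it was high. Exons of Mcm7 (chr5:138164583-138172422, GRCm38, minus strand) share 321 bases with Ap4m1 and 64 with Cops6, both on the other strand, and hold the sequences of Mir25 and Mir93, while Cdc45 (chr16:18780447-18811987, minus strand) shares 209 exonic bases with Ufd1 on the plus strand. Because the strand setting of the counting is not given, reads in these shared stretches could not be assigned with certainty.

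In Cre mice, the MCD diet raised 9 of the 10 licensing genes (adjusted p under 0.05), by 1.26-fold for Mcm7 up to 4.99-fold for Mcm2, and Mcm10 was the exception. The groups did not overlap for 7 of the 10 genes. Of the 14062 genes tested, 29.3% were called higher and 28.2% lower on MCD in Cre mice, and 15.6% were higher without overlap. The median log2 difference was 1.44 over the 10 genes and 0.012 over all genes tested. One of the 9, Cdc6, was tested by way of its counts in Cre mice on MCD. In Cre mice on MCD, mouse 3 held the lowest level of 7 of the 10 genes, and the 9 calls stood without that mouse. Mcm4 did not pass without the 5 chow libraries of low mapping share (adjusted p = 0.0755), in livers with Y-linked reads (0.178) or without Cre MCD mouse 2 (0.0583). Mcm7 did not pass in 5 of the 12 alternatives other than leaving out single livers, for example by limma-voom (adjusted p = 0.0614), nor in 5 of the 22 fits without 1 liver.

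Within the Mcm2 to Mcm7 ring, 3 subunits rose most. Mcm2 (chr6:88883474-88898780, minus strand) stood at a lowest, median and highest level of 2.98, 3.92 and 4.32 CPM in Cre mice on chow and at 19.6, 29.9, 9.52, 19.4 and 17.4 CPM in Cre mice on MCD. Every MCD liver lay above every chow liver, and the log2 difference was 2.32 ± 0.23 (SE), with an adjusted p of 3.08e-08. Mcm5 (chr8:75109569-75128439, plus strand) stood at 1.74, 2.41 and 4.32 CPM on chow against 12.2, 13.7, 5.11, 14.4 and 11.02 CPM on MCD, a difference of 2.11 ± 0.34 without overlap (adjusted p = 2.19e-05). Mcm6 (chr1:128331590-128359664, minus strand) stood at 3.92, 5.59 and 7.60 CPM on chow against 20.9, 26.3, 13.7, 30.03 and 23.0 CPM on MCD, a difference of 1.98 ± 0.26 (adjusted p = 1.65e-06). The other subunits of the ring moved less. Mcm3 rose by a log2 difference of 1.01 ± 0.21 from 4.85 ± 1.11 to 9.79 ± 2.86 CPM (SD, n = 6 and 5) and Mcm4 by 0.69 ± 0.24 from 4.14 ± 0.730 to 6.70 ± 1.43 CPM. Mcm7 rose by 0.34 ± 0.13, with groups that overlapped, from 13.9 ± 1.19 to 17.6 ± 4.03 CPM.

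Of the loading factors, Cdt1 rose in Cre mice, and Cdc6 is given as a description. Cdt1 (chr8:122568015-122573554, plus strand), which brings the ring to the origin, stood at 1.66, 2.72 and 3.696 CPM on chow against 9.06, 10.6, 4.59, 10.7 and 7.58 CPM on MCD, a log2 difference of 1.65 ± 0.21 (adjusted p = 9.46e-07). Cdc6 (chr11:98907801-98923940, plus strand), an ATPase of the loading reaction, was counted 2 to 8 times per liver on chow and 43, 40, 17, 32 and 15 times on MCD, a fitted difference of 2.28 ± 0.39. It entered the test through these MCD counts, so its call is no support for a rise. Cdc45, which turns the loaded ring into a helicase, went from 1.24 ± 0.311 to 2.92 ± 0.909 CPM (1.24 ± 0.23 on the log2 scale, adjusted p = 8.77e-05), a call lost in livers with Y-linked reads (1.09, adjusted p = 0.0547). The 2 groups did not overlap for Cdt1 or Cdc45.

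**Figure D1:**
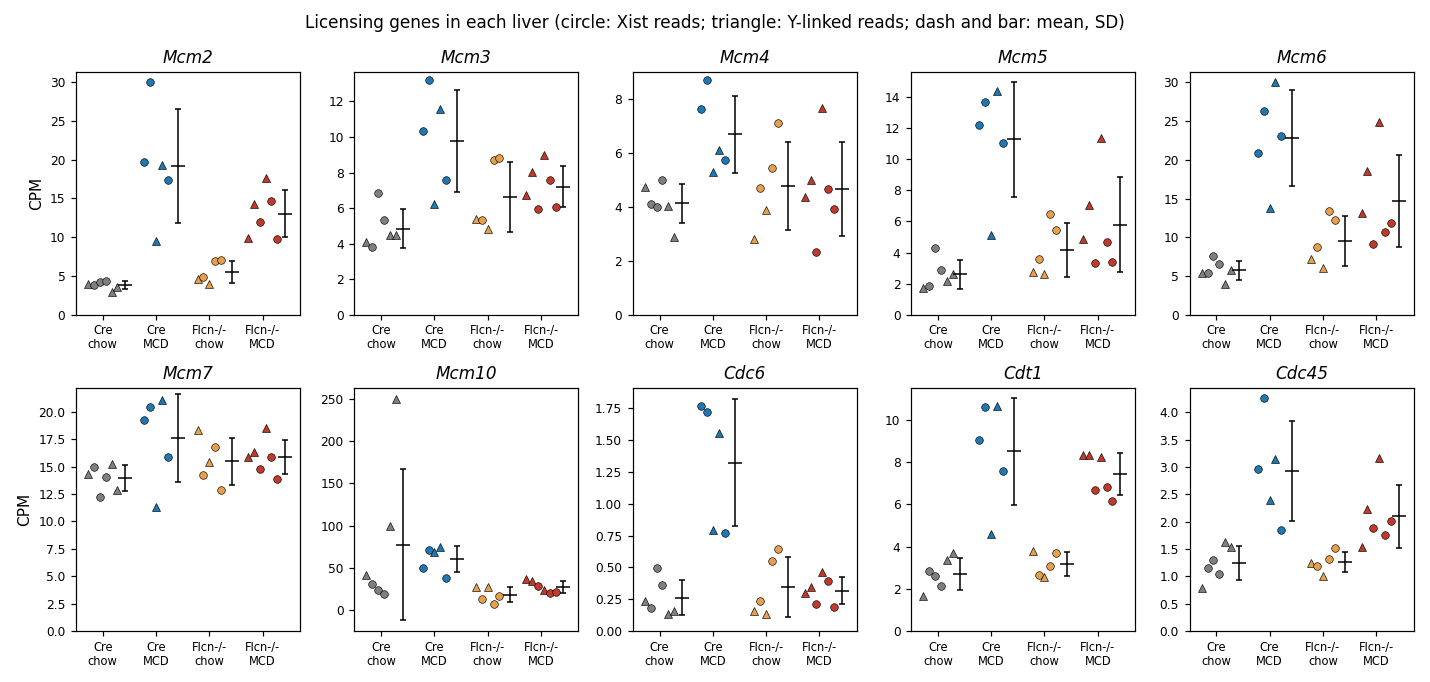
Level of each licensing gene (CPM, linear axes, 1 panel per gene) in each of 22 livers by group, with circles for livers with Xist reads, triangles for livers with Y-linked reads, and a dash with a bar for the group mean and SD. Cre mice on MCD stand above Cre mice on chow for Mcm2, Mcm5, Mcm6, Cdc6, Cdt1 and Cdc45, while Cdc6 in liver-Flcn-/- mice stays at or below 0.647 CPM and Mcm10 is set apart by a Cre chow liver at 249.6 CPM.

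In liver-Flcn-/- mice, the same diet raised 3 of the 10 genes, Mcm2, Cdt1 and Cdc45, by 2.35-, 2.35- and 1.67-fold, and none fell. These 3 were also the genes whose MCD livers all lay above the chow livers. Of all genes tested, 22.5% were called higher and 22.5% lower on MCD in these mice, and 14.4% were higher without overlap. The share of the 10 genes called higher thus lay near that of all genes. Mcm2 stood at 4.67, 4.93, 4.03, 6.95 and 7.06 CPM in the 5 chow livers against a lowest, median and highest level of 9.83, 13.1 and 17.6 CPM on MCD. The log2 difference of Mcm2 was 1.23 ± 0.23, with an adjusted p of 0.000141. Cdt1 stood at 3.81, 2.67, 2.55, 3.09 and 3.72 CPM on chow against 6.15, 7.54 and 8.35 CPM on MCD (1.23 ± 0.21, adjusted p = 6.60e-05). Cdc45 stood at 1.25, 1.19, 1.01, 1.32 and 1.51 CPM on chow against 1.53, 1.95 and 3.17 CPM on MCD, a narrow gap, with a difference of 0.74 ± 0.23 (adjusted p = 0.0123). The call of Cdc45 was lost without the 5 chow libraries of low mapping share (adjusted p = 0.0631), in livers with Xist reads (0.201) and in livers with Y-linked reads (0.112). In these settings other genes were called, Mcm10 in the first and second and Mcm5 and Mcm6 in the third, so that a like count held different genes.

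The other genes gave smaller values in liver-Flcn-/- mice. Mcm6 (0.62 ± 0.26, adjusted p = 0.0526) lay at the threshold. It passed with RLE factors (adjusted p = 0.0497), by DESeq2 (0.0326), with the replicate block (0.0280), in livers with Y-linked reads (1.49, 0.0155) and without any 1 of 6 livers, but gave −0.12 in livers with Xist reads. Mcm5 (0.47 ± 0.33), Mcm3 (0.12 ± 0.21), Mcm7 (0.036 ± 0.13), Mcm4 (−0.043 ± 0.24) and Cdc6 (−0.16 ± 0.42) gave intervals that held 0. Mcm5 stood at 2.72, 3.56, 2.62, 6.45 and 5.44 CPM on chow against 3.35, 4.78 and 11.4 CPM on MCD. The highest of these belonged to mouse 4, which also held the highest Mcm6 (24.9 CPM), Mcm2, Mcm3, Mcm4, Mcm7, Cdc6 and Cdc45 of its group. Cdc6 was counted 2, 4, 2, 10 and 12 times on chow and 4 to 11 times on MCD. The median log2 difference was 0.53 over the 10 genes and 0.0043 over all genes tested, and 0.28 over the 10 genes without mouse 4, when the 3 calls stood.

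On chow, liver-Flcn-/- mice differed from Cre mice in 1 of the 10 genes, Mcm10, which was lower. That call was lost in 6 of the 12 alternatives other than leaving out single livers, with adjusted p between 0.0586 by limma-voom and 0.106 with the replicate block. The share of all genes called lower was 3.10%, and 5.52% were called higher. None of the 10 was lower without overlap, as 2.93% of all genes were. The other 9 genes gave positive differences, from 0.024 ± 0.24 for Cdc45 to 0.73 ± 0.26 for Mcm6 (adjusted p = 0.0875), none of which passed here, although Mcm6 did by DESeq2 (0.0488) and in livers with Xist reads (0.82, adjusted p = 0.0231), and 3 of these 9 had an unadjusted p under 0.05. The median difference was 0.32 against −0.027 over all genes. Summed lymphocyte marker mRNA was also higher on chow, at 9.48 to 11.3 CPM in liver-Flcn-/- mice against 4.66 to 7.97 CPM in Cre mice, without overlap, and 7 of 7 of these markers gave positive differences, of which 0 passed by edgeR, limma-voom or DESeq2 (2, 3 and 2 with an unadjusted p under 0.05). Their part in the licensing values was not tested. Within the chow group of liver-Flcn-/- mice, mice 4 and 5 held the highest levels of Mcm2, Mcm3, Mcm4, Mcm5, Mcm6 and Cdc6, for example 13.4 and 12.3 CPM of Mcm6 against 6.04 to 8.73 CPM in mice 1, 2 and 3. Mice 4 and 5 had Xist reads, as did mouse 2.

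On MCD, the 10 genes gave a lower fitted level in liver-Flcn-/- than in Cre mice, and 2 passed the test, Mcm5 and Cdc6. Cdc6 was tested by way of the Cre MCD group, so its values against that group are given as a description and Mcm5 is the 1 call among the other 9 genes. Of all genes tested, 8.53% were called lower and 8.06% higher, and 3.53% were lower without overlap, the latter being the case for Cdc6 and Mcm10. Cdc6 stood at 1.77, 1.72, 0.797, 1.55 and 0.769 CPM in Cre mice and at a lowest, median and highest level of 0.191, 0.320 and 0.465 CPM in liver-Flcn-/- mice, 0.245-fold the level of Cre mice. The difference of Cdc6 was −2.03 ± 0.36 on the log2 scale (adjusted p = 0.000642). Mcm5 gave −0.96 ± 0.32 (adjusted p = 0.0446), a call lost with no filter on low counts (0.0560) and in 4 other alternatives, with groups that overlapped, since Cre mouse 3 (5.11 CPM) lay below liver-Flcn-/- mice 2 (7.06 CPM) and 4 (11.4 CPM). Mcm2 (−0.56 ± 0.21, adjusted p = 0.0769), Mcm6 (−0.63 ± 0.25, 0.0863), Cdc45 (−0.48 ± 0.22, 0.139) and Cdt1 (−0.19 ± 0.20, 0.558) did not pass. The median difference was −0.54 against −0.014 over all genes, and 8 of the 10 genes had an unadjusted p under 0.05. Mcm5 did not pass in 11 of the 22 fits that left out 1 liver (adjusted p up to 0.113, without Cre MCD mouse 4), which leaves no call among the 9 genes other than Cdc6. The count of 2, Cdc6 included, became 6 without liver-Flcn-/- MCD mouse 4 and 4 without Cre MCD mouse 3.

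The response to the diet was smaller in liver-Flcn-/- than in Cre mice for Mcm2, Mcm5 and Mcm6 by the interaction of genotype and diet, which called 4 of the 10 genes with Cdc6, where 5.54% of all genes gave a smaller response and 3.29% a larger one. The difference between the log2 responses was −1.63 ± 0.47 for Mcm5 (adjusted p = 0.0348), −1.36 ± 0.36 for Mcm6 (0.0228) and −1.09 ± 0.31 for Mcm2 (0.0342). Cdc6, tested by way of the Cre MCD group, gave −2.45 ± 0.58 (adjusted p = 0.0127), a description, and its call was lost with the replicate block (−2.21, adjusted p = 0.0535) and in livers with Y-linked reads (−1.41, adjusted p = 0.673). Cdt1 (−0.42 ± 0.29, 95% interval −1.03 to 0.20) and Cdc45 (−0.50 ± 0.32, −1.18 to 0.18) did not pass. The median was −0.81 over the 10 genes, 9 of which were negative, against 0.030 over all genes. Of the 22 fits that left out 1 liver, the call of Mcm6 stood in 21, that of Mcm2 in 13 and that of Mcm5 in 11. Mcm2 and Mcm5 did not pass by limma-voom (adjusted p = 0.113 and 0.0579), without the 5 chow libraries of low mapping share (0.0908 and 0.0834) or without mixed libraries (0.0673 and 0.0700), where Mcm6 did. Their differences in these settings (−1.01 and −1.66, −1.16 and −1.73, −1.12 and −1.66) were about as large as in the main fit. In livers with Y-linked reads none of the 4 passed, and with the block Mcm6 alone did. Mcm2, Mcm5 and Mcm6 gave −0.40, −0.65 and −0.65 in livers with Y-linked reads, against −1.48, −2.46 and −1.97 in livers with Xist reads. DESeq2 called 5, with Mcm3 added (adjusted p = 0.0309), and so did livers with Xist reads, with Mcm4 added (0.0284). Without liver-Flcn-/- chow mouse 4 none of Mcm2, Mcm5 and Mcm6 passed (adjusted p = 0.0728, 0.0806 and 0.0536), and of these Mcm6 alone passed without Cre chow mouse 5, Cre MCD mouse 1 or 4, liver-Flcn-/- chow mouse 5 or liver-Flcn-/- MCD mouse 1, 3 or 6. These comparisons share groups with each other, so that their values for a gene are not independent.

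**Figure D2:**
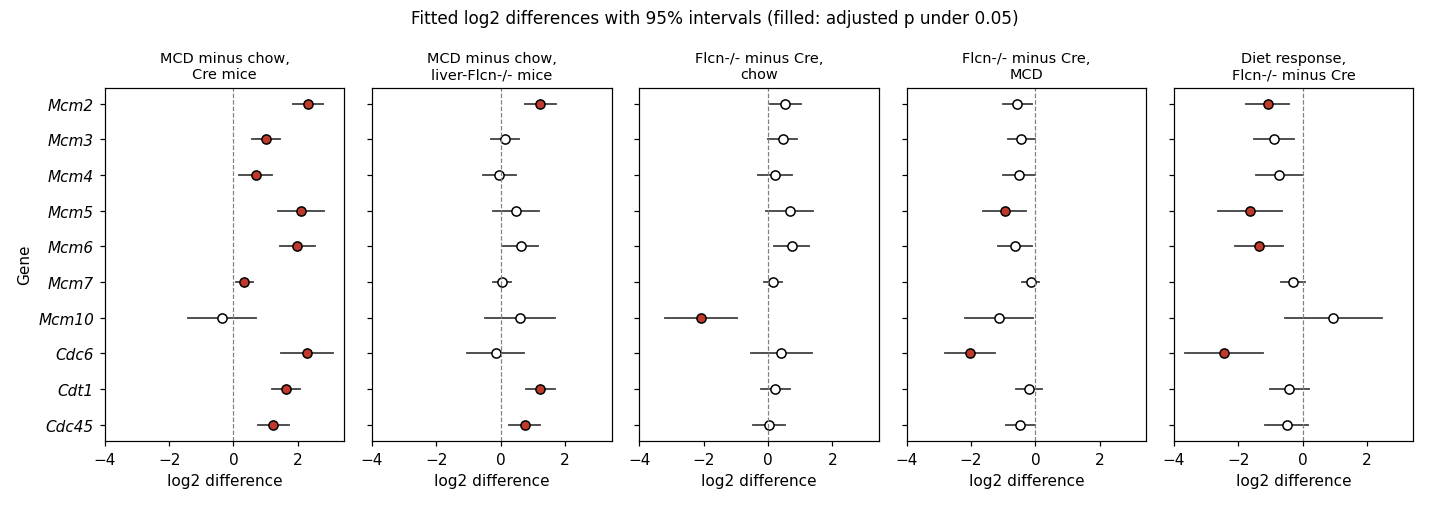
Fitted log2 difference of each licensing gene with its 95% interval in 5 comparisons (panels), where filled points have an adjusted p under 0.05 and the dashed line marks no difference. Filled points number 9 in Cre mice, 3 in liver-Flcn-/- mice and 4 for the interaction, and Cdc6, which entered the test through its counts in Cre mice on MCD, is 1 of the 9 and 1 of the 4.

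When the livers were divided by sex class, an added comparison made after the values were seen, the diet response of Cre mice had one direction in both classes for each gene but Mcm10, and that of liver-Flcn-/- mice did not for Mcm3, Mcm4, Mcm5, Mcm6 and Cdc6. In 1 fit of the 8 cells of group and sex class, the median log2 response of the 10 genes in Cre mice was 1.61 in livers with Xist reads and 1.22 in livers with Y-linked reads. In liver-Flcn-/- mice it was −0.048 in the 3 against 3 livers with Xist reads and 1.18 in the 3 MCD against 2 chow livers with Y-linked reads. Mcm6 went by −0.12 in the former and by 1.51 in the latter, a difference of −1.63 ± 0.40 (unadjusted p = 0.000719, adjusted p = 0.0789). Mcm5 gave −0.44 and 1.54 (difference −1.98 ± 0.56, adjusted p = 0.140) and Mcm4 −0.66 and 0.76 (−1.42 ± 0.41, adjusted p = 0.148). In liver-Flcn-/- mice, 5 of the 10 genes had an unadjusted p under 0.05 for the difference between the sex classes and 0 passed after adjustment in edgeR's quasi-likelihood test, against 0.676% of all genes. The difference between genotypes on MCD had a median of −0.95 in livers with Xist reads and −0.19 in livers with Y-linked reads, with 4 of 10 unadjusted p under 0.05 and 0 adjusted, against 0.228% of all genes. The interaction had a median of −1.30 in livers with Xist reads and −0.27 in livers with Y-linked reads, and was lower in the former for 10 of 10 genes. Of these, 3 had an unadjusted p under 0.05 for the difference between the sex classes and 0 passed after adjustment, as did 0 of all genes. In Cre mice, Mcm10 alone had an unadjusted p under 0.05 for such a difference (1.96 ± 0.64, adjusted p = 0.0979), where 3.19% of all genes passed after adjustment, and for the genotype on chow no member did and 0.0427% of all genes passed. Cdt1 (1.05 and 1.39) and Mcm2 (0.94 and 1.68) responded upward in both classes of liver-Flcn-/- mice. The 2 Y-bearing chow livers of this genotype were also of low mapping share, and the part of the mapping share in these values cannot be told apart from sex.

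**Figure D3:**
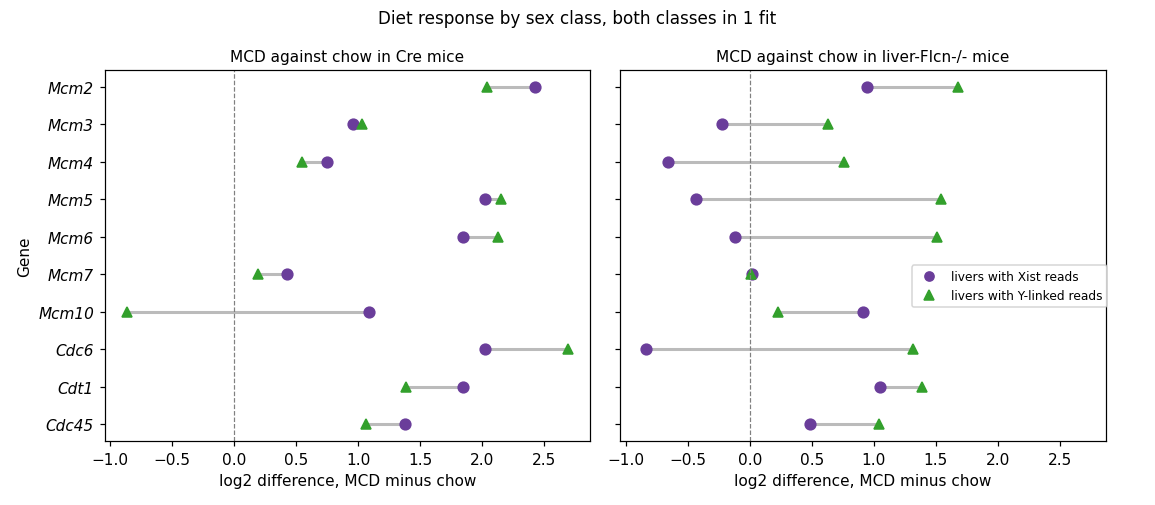
Log2 response to MCD of each licensing gene in livers with Xist reads (circles) and with Y-linked reads (triangles), for Cre mice (left) and liver-Flcn-/- mice (right), from 1 fit. The classes lie near each other in Cre mice except for Mcm10, and in liver-Flcn-/- mice Mcm3, Mcm4, Mcm5, Mcm6 and Cdc6 lie on either side of 0, differences that did not pass after adjustment.

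Mcm10 (chr2:4989714-5012791, minus strand), a replication factor that binds the ring and DNA polymerase alpha, followed another pattern than the other 9 genes. It stood at 41.98, 31.2, 23.8, 19.8, 99.8 and 249.6 CPM in Cre mice on chow, at 50.1, 71.0, 68.4, 74.9 and 38.2 CPM in Cre mice on MCD, at 27.4, 13.1, 27.5, 6.89 and 17.1 CPM in liver-Flcn-/- mice on chow and at a lowest, median and highest level of 20.03, 26.4 and 36.8 CPM in liver-Flcn-/- mice on MCD. Cre chow mouse 6 lay far above the other 21 livers. On chow the difference between genotypes was −2.08 ± 0.54 (adjusted p = 0.0170), with groups that overlapped, and it was −1.24 (adjusted p = 0.0564) without Cre chow mouse 6 and −1.87 (adjusted p = 0.0586) without liver-Flcn-/- chow mouse 4. On MCD it was −1.13 ± 0.50 (adjusted p = 0.132), although each liver-Flcn-/- liver lay below each Cre liver. It passed without the 5 chow libraries of low mapping share (−1.13, adjusted p = 0.00224), with the 2 MCD groups alone (−1.13, 0.00308), with sex as a covariate (−1.25, 0.0289), in livers with Xist reads (−1.19, 0.0152) and without Cre chow mouse 6 (−1.13, 0.0360). The diet response in Cre mice was −0.36 ± 0.50 and turned to 1.28 (adjusted p = 0.00136) without the 5 chow libraries of low mapping share and to 1.09 (adjusted p = 0.00653) among livers with Xist reads. The response of Mcm10 in liver-Flcn-/- mice was 0.60 ± 0.51 (adjusted p = 0.362), and it passed in the same settings (1.16, adjusted p = 0.00336, and 0.91, adjusted p = 0.0272).

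Livers with Xist reads held less Mcm10 than livers with Y-linked reads by 1.14 on the log2 scale (−1.14 ± 0.29, adjusted p = 0.0348, groups in the fit), and none of the other 9 genes passed that comparison, in which 2.70% of all genes did. On chow, where the Y-bearing livers were of low mapping share, the class means were 24.9 against 130.5 CPM in Cre and 12.4 against 27.4 CPM in liver-Flcn-/- mice. On MCD they were 53.1 against 71.6 CPM and 23.3 against 32.1 CPM. The pattern of Mcm10 over the 22 livers had a median Pearson r of 0.036 with those of the other 9 genes. Among the other 9 genes the median r of the 36 pairs was 0.763, between 0.367 and 0.962, the highest being that of Mcm5 with Mcm6. After group means were removed it was 0.577. These correlations are descriptions over livers that share group and library depth. The genes most like Mcm10 in pattern, looked up after its values were seen, were Pcsk4 (r = 0.845), Dym (0.835) and Cebpb (0.830).

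Over the 22 livers, the genes outside the list most like its mean z-score (each gene's log2 CPM scaled over the livers) were Kdelr3 (Pearson r = 0.947), Chaf1a (0.939), Sprr1a (0.933), Gins2 (0.930), Ica1 (0.928), Cdc42se1 (0.927), Slc48a1 (0.922) and Srxn1 (0.922), of 14043 genes compared. Chaf1a, a subunit of the chromatin assembly factor that follows the fork, and Gins2, a subunit of GINS, are replication genes, while Srxn1 encodes an antioxidant enzyme and Kdelr3 a retrieval receptor of the secretory pathway. With group means removed, r fell to between 0.679 for Srxn1 and 0.867 for Chaf1a.

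The counts of the other lists are to be read against the shares of all genes called with the diet, 29.3% higher and 28.2% lower in Cre mice and 22.5% each way in liver-Flcn-/- mice. Of the origin recognition complex, which marks origins in resting cells too, 0 of 5 tested genes passed in either direction with the MCD diet in either genotype by edgeR, limma-voom or DESeq2, and in edgeR 1 of 5 had an unadjusted p under 0.05 in each genotype. Orc6 gave 0.24 in Cre and 0.33 in liver-Flcn-/- mice. Orc1, counted at most 12 times in a liver, was not tested, nor were Cdc7 and Ticrr. Of the other members and partners of the MCM family, Mcm8, which acts in recombination, rose in both genotypes (0.75 and 0.95), while Mcmbp, which handles the ring off chromatin, fell by 0.26 in Cre mice and gave 0.0086 in liver-Flcn-/- mice. With the diet, 3 of 5 inhibitors of licensing rose in Cre mice, where Cul4a, named after its value was seen, fell by 0.81, and 2 of 5 rose in the other genotype. Geminin (Gmnn), which binds Cdt1, rose by 0.33 and 0.53, Dtl, which directs the destruction of Cdt1, rose by 2.22 in Cre mice and gave 0.73 (adjusted p = 0.177) in liver-Flcn-/- mice, and Fbxo5 passed in neither (−0.065 and 0.13).

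Origin firing factors rose in 10 of 13 cases in Cre mice and in 2 of 13 in liver-Flcn-/- mice, with median log2 differences of 0.75 and 0.16. The difference between these responses passed for 0 of the 13 by edgeR (5 with an unadjusted p under 0.05) and limma-voom and for 1 by DESeq2, so that the lists were not shown to respond differently, and it passed for 4 in livers with Xist reads and 3 without liver-Flcn-/- MCD mouse 4. Gins2 rose by 2.13, Clspn, a mediator of the replication checkpoint, by 1.70 and Dbf4, the activator of the Cdc7 kinase, by 0.91 in Cre mice. In liver-Flcn-/- mice these gave 0.86 (adjusted p = 0.0542), 0.081 and 0.28, while Gins1 rose by 0.49 there and gave 0.32 in Cre mice, and Topbp1, named after its value was seen, fell by 0.41 there. Clspn averaged 5.17 counts in Cre mice on chow, 25.2 on MCD, and 7.6 and 10.7 in liver-Flcn-/- mice. Without Cre mice on MCD it would not have reached the filter mean of 10 counts, so its values against that group are a description. The 10 calls in Cre mice became 6 without the 5 chow libraries of low mapping share, and the 2 in liver-Flcn-/- mice became 0 without them or without MCD mouse 4. Of 27 genes of the fork, 13 rose and 3 fell in Cre mice, against 7 and 2 in liver-Flcn-/- mice, where the share that rose lay near the 22.5% of all genes, and the interaction passed for 2 in each direction. Chaf1b rose in both (1.89 and 1.49), and Lig1, which joins Okazaki fragments, rose by 1.12 in Cre mice and gave 0.66 (adjusted p = 0.0638) in liver-Flcn-/- mice. Pole, the leading-strand polymerase, rose by 1.10 in Cre mice and gave −0.25 in liver-Flcn-/- mice, a difference of −1.35 between the responses (adjusted p = 0.0141). Pcna, the sliding clamp, gave 0.094 and 0.079 and passed in neither genotype.

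Of 10 genes of deoxynucleotide supply, 2 were called higher and 2 lower in Cre mice, below the shares of all genes, and 1 higher with 3 lower in the other genotype, where 22.5% of all genes went each way. Rrm1, the large subunit of ribonucleotide reductase, rose by 0.60 and 0.49, and the S-phase subunit Rrm2 rose by 0.87 in Cre mice and gave −0.28 in liver-Flcn-/- mice. Tk1, thymidine kinase, fell by 1.79 in Cre mice and by 1.78 in liver-Flcn-/- mice. Among activators of S-phase entry, 8 of 17 rose and 2 fell in Cre mice, against 5 and 5 in liver-Flcn-/- mice, the latter near the shares of all genes, and the interaction passed for 1, Ccnd1. Ccne1 rose in both genotypes (2.83 and 2.34), whereas Ccnd1, cyclin D1, rose by 2.24 in Cre mice and gave 0.30 in liver-Flcn-/- mice, a difference of −1.94 between the responses (adjusted p = 0.0157). Ccne2 (1.30) and Ccna2 (2.30) rose in Cre mice and gave 0.38 and −0.0092 in liver-Flcn-/- mice. E2f1 gave 0.29 in Cre mice, fell by 0.69 in liver-Flcn-/- mice and was lower in these than in Cre mice on MCD (−1.06, adjusted p = 0.00512). Among repressors, 4 of 16 rose and 2 fell in Cre mice, while 3 of 16 moved in each direction in the other genotype, shares near or below those of all genes. Cdkn1a, the p21 inhibitor, rose by 1.45 in Cre mice and gave 0.65 in liver-Flcn-/- mice, and E2f8, an atypical repressor of E2F targets, was higher in liver-Flcn-/- than in Cre mice on chow (1.11, adjusted p = 0.0328) and on MCD (1.56, adjusted p = 0.00167).

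**Figure D4:**
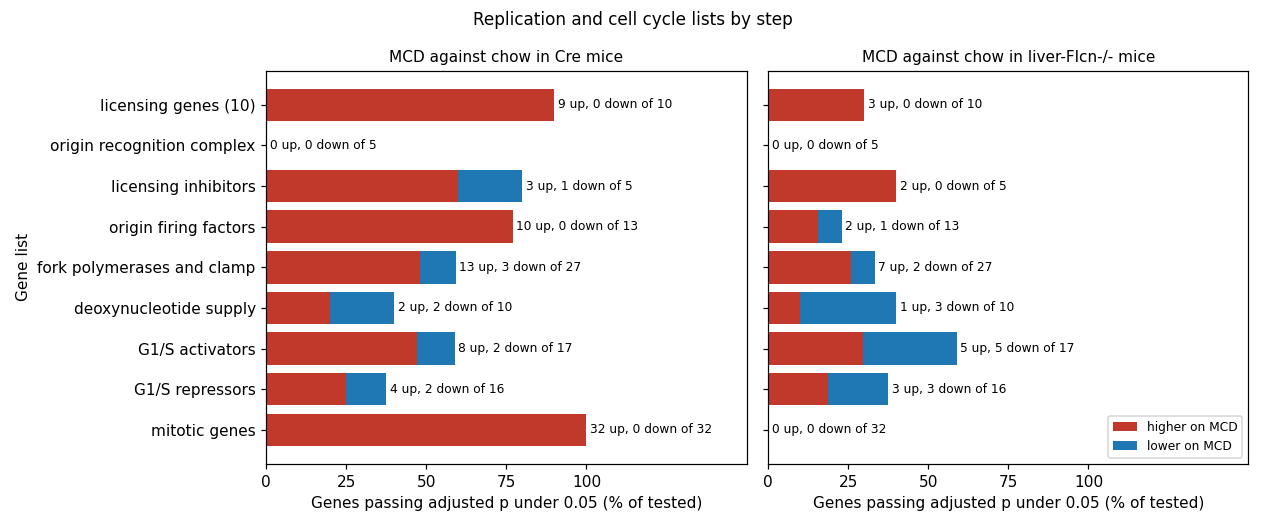
Share of tested genes of each list that were called higher (red) or lower (blue) on MCD than on chow (percent of tested genes, adjusted p under 0.05), in Cre mice (left) and liver-Flcn-/- mice (right), with the counts beside the bars. In Cre mice 9 of 10 licensing, 10 of 13 firing and 32 of 32 mitotic genes were higher, against 3, 2 and 0 in liver-Flcn-/- mice. The 9 include Cdc6 and the 10 include Clspn. Both genes reached the test by way of their counts in Cre mice on MCD, so their calls are no support for a rise.

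The mitotic genes rose with the licensing genes in Cre mice on MCD. The 32 mitotic genes rose in Cre mice with a median log2 difference of 2.43 (25 of 32 without the 5 chow libraries of low mapping share), among them Mki67 (2.37), Top2a (2.05), Cdk1 (2.41) and Ccnb1 (3.57). Their summed level was 363.2, 94.4, 60.1, 405.8 and 113.0 CPM in Cre mice on MCD against 24.8 to 54.2 CPM on chow, so that mice 1 and 4 held most of it and mouse 3 lay just above the chow livers. The count was 31 of 32 without mouse 1 and by limma-voom. In liver-Flcn-/- mice 0 of the 32 passed by edgeR, limma-voom or DESeq2, the number with an unadjusted p under 0.05 was 0 by edgeR and limma-voom and 1 by DESeq2, and the median was 0.096. Mcm2, Cdt1 and Cdc45 were called higher there, and the difference between the lists was not tested. Among livers with Xist reads alone, a choice made after the data were seen, 14 of the 32 fell with the diet in liver-Flcn-/- mice, among them Top2a (−1.54) and Ccnb1 (−1.94), and among Y-bearing livers 0 passed. The diet called 40.7% of all genes in either direction among livers with Xist reads and 20.7% among Y-bearing livers. The median of the 32 was −1.35 in the former class and 0.74 in the latter. The intervals of the mitotic genes were wide, as the SE of Mki67 shows (−0.24 ± 0.55 in liver-Flcn-/- mice). On chow the 32 mitotic genes gave positive differences in liver-Flcn-/- mice (median 1.03) of which 0 passed by edgeR or limma-voom, 4 by DESeq2 and 15 by edgeR on the 2 chow groups alone, with 13 unadjusted p under 0.05 by edgeR. DESeq2 called 10.8% of all genes in either direction there, and the fit of the 2 chow groups alone called 7.55%. The licensing genes gave a median of 0.32. On MCD 5 of the 32 mitotic genes were lower in liver-Flcn-/- mice (median −1.38), where 8.53% of all genes were. That count became 31 without liver-Flcn-/- MCD mouse 4 and 19 without Cre MCD mouse 3. It was 32 in livers with Xist reads (median −2.72) and 0 in Y-bearing livers (median −0.85), without the mixed libraries or with the 2 MCD groups alone. The shares of all genes called in either direction were 15.0% in livers with Xist reads and 4.89% in Y-bearing livers. The interaction passed for 13 of the 32 (median −2.53), where 5.54% of all genes gave a smaller response. This count was 30 without liver-Flcn-/- MCD mouse 4, 21 without Cre MCD mouse 3, 30 in livers with Xist reads, and 0 in Y-bearing livers, by limma-voom, without the mixed libraries or without the 5 chow libraries of low mapping share. The median interaction of the 32 was −3.65 in livers with Xist reads, where 8.62% of all genes passed in either direction. It was −2.30 in Y-bearing livers, where 0.441% of all genes passed in either direction.

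Liver by liver, the mean z-score of the 9 licensing genes without Mcm10 and that of the 32 mitotic genes had a Pearson r of 0.768 and a Spearman rho of 0.733 over the 22 livers, which share group and depth, and 0.622 with group means removed. Livers of equal mitotic score could differ in licensing. Liver-Flcn-/- MCD mice 3, 5 and 6 had mitotic scores of −0.823, −0.810 and −1.12, within the range of Cre mice on chow (−1.18 to −0.291), and licensing scores of −0.320, 0.219 and −0.180, each above the highest Cre chow liver at −0.556. Cre MCD mouse 2 had the highest licensing score, 1.80, at a mitotic score of 0.398, and liver-Flcn-/- MCD mouse 4, with 1.10 and 1.44, had the highest of its group on both.

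**Figure D5:**
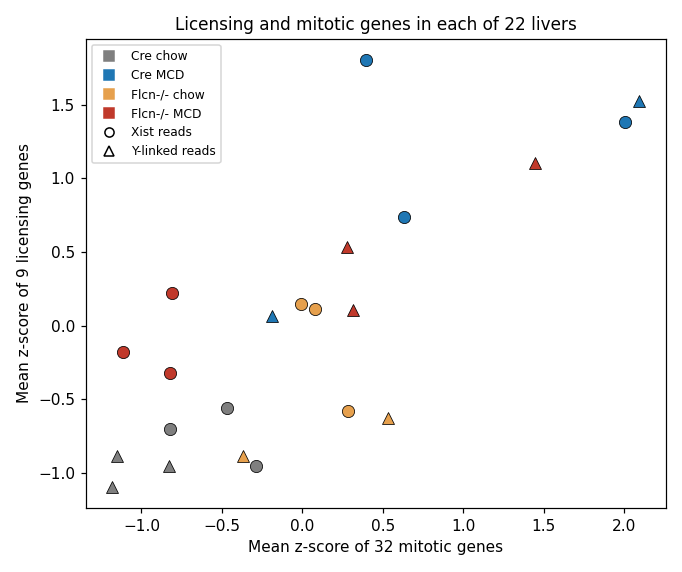
Mean z-score of 9 licensing genes (without Mcm10, vertical axis) against that of 32 mitotic genes (horizontal axis) in each of 22 livers, coloured by group, with circles for livers with Xist reads and triangles for livers with Y-linked reads. The 2 scores rise together, and 3 liver-Flcn-/- MCD livers with low mitotic scores lie above the Cre chow livers in licensing. Mouse 5 apart, these lie within the licensing range of the liver-Flcn-/- chow livers.

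Markers of other liver cells were counted in the same way. Of 7 stellate cell markers, 5 were higher on MCD in Cre mice, against 0 in liver-Flcn-/- mice, where 1, Col3a1, was lower (adjusted p = 0.0490, named after its value was seen), and 5 were lower in liver-Flcn-/- than in Cre mice on MCD, where 8.53% of all genes were. Their summed level was 246.7, 133.4, 429.5, 229.9 and 166.9 CPM in Cre mice on MCD, 121.3, 151.1, 92.4, 204.9 and 194.7 CPM in liver-Flcn-/- mice on chow, and at a lowest, median and highest level 73.0, 118.7 and 154.3 CPM in Cre mice on chow and 104.3, 121.6 and 160.5 CPM in liver-Flcn-/- mice on MCD, with Reln the most abundant in each group. Of 10 macrophage markers, 5 were higher and 2 lower on MCD in Cre mice, in liver-Flcn-/- mice 3 were higher with 4 lower, and 5 responded less in the latter. The summed macrophage level was 723.4, 518.4, 751.8, 938.5 and 635.4 CPM in Cre mice on MCD, 623.5, 576.6, 577.0, 423.9 and 544.2 CPM in liver-Flcn-/- mice on chow, and at a lowest, median and highest level 346.7, 489.9 and 557.4 CPM in Cre mice on chow and 336.2, 566.0 and 824.8 CPM in liver-Flcn-/- mice on MCD, with Cd5l the most abundant. No stellate or macrophage marker was at 0 in a group. Cre MCD mouse 3, highest in stellate and muscle mRNA of its group, was lowest in most licensing genes. The part of these cell types in the licensing genes was not tested.

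Hepatocyte markers fell in 5 of 8 cases in each genotype on MCD, with Alb the most abundant. Bile duct markers, led by Spp1, were higher in 3 of 6 cases in Cre mice and 0 of 6 in liver-Flcn-/- mice, and endothelial markers, led by Stab2, were higher in 1 and lower in 3 of 6 in Cre mice and lower in 4 in liver-Flcn-/- mice. Between genotypes, 2 of 6 bile duct markers were higher in liver-Flcn-/- than in Cre mice on each diet, where 5.52% (chow) and 8.06% (MCD) of all genes were. Their summed level was 125.2 ± 47.7 against 64.3 ± 18.2 CPM (SD) on chow and 120 ± 22.2 against 141 ± 22.9 CPM on MCD. Lymphocyte markers, led by Cd3g, were lower in 4 of 7 cases in liver-Flcn-/- mice and passed in 0 of 7 in Cre mice, while the interaction passed for 0 of 7 by edgeR, limma-voom or DESeq2 (1 with an unadjusted p under 0.05 by each). The interaction called 1 bile duct and 0 endothelial markers lower in response and 1 hepatocyte marker higher. Neutrophil markers, led by S100a9, were higher in 3 of 4 tested in each genotype. The fourth was called lower in Cre mice (−6.32 on the log2 scale). The summed neutrophil and myeloid precursor level was 46.1 CPM in Cre chow mouse 5 and 1.69 to 8.81 CPM in the other Cre chow livers. The call of the fourth marker is thus given as a description. Of 3 tested erythroid markers, 1 was lower on MCD in each genotype, with Alas2 the most abundant and Hemgn at 0 in 3 of the 4 groups. The summed erythroid level was 201, 163.3 and 217 CPM in Cre chow mice 1, 5 and 6. It was 137.3 and 134.8 CPM in liver-Flcn-/- chow mice 1 and 3. These are the chow libraries of low mapping share. The other chow livers held 19.05 to 45.87 CPM and the MCD livers 26.89 to 67.4 CPM. The 8 skeletal muscle markers were called higher on MCD in Cre mice, where mouse 3 held most of the signal (2337 CPM summed, against 1.19 to 4.87 CPM on chow). They reached the test largely by way of that group, so these calls are given as a description.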

How the data were processed

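Liver mRNA of 22 mice was sequenced by the authors, who trimmed the reads with Trimmomatic, aligned them to GRCm38 with STAR and counted them on genes with HTSeq. They deposited raw read counts, whole numbers without normalization, in 1 table whose 22 columns carry the sample titles, with 0 columns left without a sample. Versions, the strand setting and any collapsing of molecular identifiers are not given in the sources used here. Groups and replicate numbers came from the titles. Nothing else in the labels names separate cages or litters, and p-values measure the spread between mice.

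Differences were fitted in R 4.3.3 with edgeR 4.0.16 (quasi-likelihood test, two-sided, TMM scaling, a mean count filter of 10, the 4 groups in 1 fit, Benjamini-Hochberg adjustment over 14062 genes, threshold 0.05). The SE was taken as the log2 difference over the root of F. Its 95% interval used the t quantile at the residual degrees of freedom. Levels are CPM on the TMM-scaled library, and log2 CPM for z-scores used a prior count of 2. Intervals cover the spread between livers. Alternatives were limma-voom (limma 3.58.1), DESeq2 1.42.0, RLE factors, other filters, fits of only the groups compared, sex as a covariate, a replicate block, and leaving out single livers or the 5 chow libraries of low uniquely mapped share in the library statistics. Fits by sex class, without mixed libraries and of gene lists without single libraries were added after the data were seen. The fit was tested on simulated data.

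The members, the gene lists and the tests were chosen with earlier results of these data known. The text names the members, Flcn, a fixed list of replication and cell cycle genes, the most abundant gene of each marker list, and the 8 genes of at least 0.5 mean CPM most like the members' mean z-score over 22 livers. Others were named after their values were seen. Positions and exon lengths come from GENCODE M21 on GRCm38, promoter windows from RefSeq on GRCm38.p6. No 2 libraries of a group were identical.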

Additional observations from a re-analysis of the deposited data

Results flagged for a closer look

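Of 92 group values examined for 1 liver far from the others of its group (members, Flcn, scores and summed cell lists), 7 (7.61%) had one, where chance gives about 1 in 20. Mcm10 was 249.6 CPM in Cre chow mouse 6, and the summed mitotic genes were 218.8 CPM in liver-Flcn-/- MCD mouse 4. The summed neutrophil and myeloid precursor markers were 46.1 CPM in Cre chow mouse 5. The summed skeletal muscle markers stood out in 1 liver of each group, at 4.87 CPM in Cre chow mouse 5, 2337 CPM in Cre MCD mouse 3, 10.54 CPM in liver-Flcn-/- chow mouse 3 and 51.2 CPM in liver-Flcn-/- MCD mouse 3. The response to the diet differed between the genotypes, by the interaction term, for Mcm2 (−1.09 on the log2 scale), Mcm5 (−1.63) and Mcm6 (−1.36) among the licensing genes, with −2.45 for Cdc6, a description since Cdc6 was tested by way of its Cre MCD counts, and for Pole (−1.35), Mki67 (−2.61) and Ccnd1 (−1.94) among the other named genes.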

How the results depend on the processing

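The count of licensing genes called with the diet was 9 in Cre mice, with Cdc6 included as a description. It was 6 in Y-bearing livers, 8 to 10 in the other alternatives and 7 to 9 with single livers left out. In liver-Flcn-/- mice the count was 3 or 4 throughout, and the genes called were not the same in every setting. Of all genes, 33.3% were called in Cre mice in Y-bearing livers and 26.8% to 58.1% in the other alternatives, against 18.9% to 46.8% in liver-Flcn-/- mice, single livers left out apart. For the diet in Cre mice, 115 of 120 values of the 10 genes kept their direction and 110 their side of the threshold, and in liver-Flcn-/- mice 113 and 110 of 120. The count for the genotype on chow (1) was 0 by limma-voom, with the groups compared alone, without the 5 chow libraries of low mapping share, with the replicate block and in Y-bearing livers, 2 by DESeq2 (Mcm6 added) and 1 in livers with Xist reads (Mcm6 in place of Mcm10), and 0 to 1 with single livers left out (0 without Cre chow mouse 6 or liver-Flcn-/- chow mouse 4). The shares of all genes called in these 7 settings, in the order given, were 7.25%, 7.55%, 3.51%, 6.18%, 2.41%, 10.8% and 4.44%. The count for the genotype on MCD (2) was 3 without the low-mapping libraries (Mcm5, Mcm10 and Cdc6), 1 with no filter on low counts, 6 in livers with Xist reads, 1 in Y-bearing livers and 1 without mixed libraries, and 1 to 6 with single livers left out. The share of all genes called was 19.3% without the low-mapping libraries, 6.39% with no filter, 15.0% in livers with Xist reads, 4.89% in Y-bearing livers and 12.6% without mixed libraries. The count for the interaction (4) was 5 by DESeq2 and in livers with Xist reads, 2 by limma-voom, 2 without the low-mapping libraries, 1 with the block, 0 in Y-bearing livers and 2 without mixed libraries, and 1 to 5 with single livers left out. Of all genes, the interaction called 12.1% by DESeq2, 8.62% in livers with Xist reads, 7.47% by limma-voom and 5.54% without the low-mapping libraries. It called 3.93% with the block, 0.441% in Y-bearing livers and 4.91% without mixed libraries. Flcn on chow gave −0.55 without the low-mapping libraries, −0.57 with the block, −0.55 in livers with Xist reads, −0.69 in Y-bearing livers and −0.63 without mixed libraries, none past the threshold, and −0.70 to −0.56 with single livers left out, where it missed the threshold without Cre chow mouse 6 or liver-Flcn-/- chow mouse 3 or 4.

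Values that changed sign, on the log2 scale, are given here for the licensing and the other named genes. With RLE factors, values were Gmnn −0.00280 for the genotype on MCD. By DESeq2, values were Gmnn −0.00320 for the genotype on MCD. With no filter on low counts, values were Tk1 −0.00816 for the interaction. By limma-voom, values were Mcm10 0.25 for the diet in Cre mice, Clspn −0.34, Top2a −0.43, Cdk1 −0.0408 and Ccnb1 −0.56 for the diet in liver-Flcn-/- mice, Ccne1 1.03 for the genotype on chow, Gmnn −0.00693 and Cdkn1a 0.0267 for the genotype on MCD. Without the low-mapping libraries, values were Mcm10 1.28 for the diet in Cre mice, Mcm3 −0.0809, Clspn −0.20, Pcna −0.000350, Ccnd1 −0.0692, Ccna2 0.0660 and Top2a −0.0100 for the diet in liver-Flcn-/- mice. The same setting gave Orc6 −0.15, E2f1 0.22, Ccne1 1.84 and Cdkn1a −0.22 for the genotype on chow, Mcm10 −0.12 and Cdkn1a 0.0296 for the interaction. With sex as a covariate, values were Mcm10 0.0832 for the diet in Cre mice, Top2a −0.12 and Ccnb1 −0.11 for the diet in liver-Flcn-/- mice, Ccne1 0.16 for the genotype on chow, Gmnn −0.0124 and Cdkn1a 0.0198 for the genotype on MCD. With the replicate block, values were Mcm10 0.37 for the diet in Cre mice, Mcmbp −0.00846, Top2a −0.19 and Ccnb1 −0.0889 for the diet in liver-Flcn-/- mice, Ccne1 0.96 for the genotype on chow, Gmnn −0.0378 and Cdkn1a 0.00808 for the genotype on MCD, Pcna 0.0621 for the interaction. Without mixed libraries, values were Ccna2 0.000851 for the diet in liver-Flcn-/- mice. In livers with Xist reads, values were Mcm10 1.09 for the diet in Cre mice, Mcm3 −0.23, Mcm5 −0.44, Mcm6 −0.12, Gins2 −0.17, Clspn −1.23, Pcna −0.13, Ccnd1 −0.25, Top2a −1.54, Cdk1 −1.02 and Ccnb1 −1.94 for the diet in liver-Flcn-/- mice. These livers also gave Orc6 −0.15, E2f1 0.22, Ccne1 1.84 and Cdkn1a −0.22 for the genotype on chow, Orc6 −0.0685, Gmnn −0.14 and Rrm1 −0.0871 for the genotype on MCD, Mcm10 −0.18, Gmnn −0.0880 and Gins1 −0.13 for the interaction. In Y-bearing livers, values were Fbxo5 0.20 and E2f1 −0.0401 for the diet in Cre mice, Mcm4 0.74, Mcm7 −0.0108, Cdc6 1.30, Mcmbp −0.0166, Fbxo5 −0.0715, Pole 0.0921, Ccna2 0.56 and Mki67 0.65 for the diet in liver-Flcn-/- mice. These livers also gave Mcm4 −0.19, Cdc6 −0.25, Cdc45 −0.20, Fbxo5 0.0540, Clspn −0.00666, Pole −0.13, Chaf1b −0.20 and Ccne2 −0.0638 for the genotype on chow, Mcm7 0.0537, Cdt1 0.12, Mcm8 0.12, Mcmbp −0.00248, Dbf4 0.0208, Lig1 0.20, Chaf1b 0.37, Ccne1 0.0468 and Cdkn1a 0.68 for the genotype on MCD, Mcm4 0.17, Fbxo5 −0.27, Pcna 0.0979, Lig1 0.14, Chaf1b 0.57, Rrm1 0.12, Tk1 −0.0541 and Ccne1 0.50 for the interaction. With single livers left out, ranges that crossed 0 were Mcm10 −0.56 to 0.48 and Fbxo5 −0.25 to 0.0618 for the diet in Cre mice, Mcm4 −0.24 to 0.14, Mcm7 −0.0255 to 0.10, Cdc6 −0.35 to 0.19, Mcmbp −0.0305 to 0.0498, Clspn −0.58 to 0.31, Ccna2 −0.52 to 0.17, Top2a −0.79 to 0.22, Cdk1 −0.24 to 0.48 and Ccnb1 −0.72 to 0.47 for the diet in liver-Flcn-/- mice. Such ranges were also Cdc45 −0.0708 to 0.12, Orc6 −0.0645 to 0.11, E2f1 −0.20 to 0.0410 and Ccne1 −0.28 to 1.77 for the genotype on chow, Mcm8 −0.22 to 0.0125, Gmnn −0.0724 to 0.0712, Rrm1 −0.0205 to 0.12 and Cdkn1a −0.44 to 0.0137 for the genotype on MCD, Orc6 −0.0111 to 0.17, Pcna −0.0820 to 0.0399 and Tk1 −0.16 to 0.15 for the interaction. The latter value of Ccne1 on chow was without Cre chow mouse 6. The cause was not tested. The replicate numbers name different mice, and deviations from the group means correlated by 0.0236 on average over 20 same-numbered pairs (−0.551 to 0.470), 6 of them over 0.1. On chow, pairs 1, 2 and 4 across the genotypes (0.431, 0.350 and 0.470) were of the same sex class and mapping share, and pairs 3 and 5 (−0.551 and −0.393) were not, so that the replicate block partly followed that class there. Low counts limit Cdc6, at 2 to 43 per liver.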
